A study of Mus musculus with 6 samples.

Results

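The genes described here are 10 transcription factors of the ETS family that recognise the DNA consensus bound by Elk-1. They are Elk1, Elk3, Elk4, Ets1, Ets2, Etv1, Etv4, Etv5, Gabpa and Elf2. They were listed by name, although earlier results of these data were known when they were chosen. All 10 are among the 24060 genes of the count table. RNA was sequenced from retinal ganglion cells (RGCs), the neurons whose axons form the optic nerve, taken from C57BL/6 mice at E18 (embryonic day 18) or P5 (postnatal day 5). The E18 samples carry the numbers 1, 3 and 4 and the P5 samples the numbers 6, 8 and 9, so each age has n = 3. Retinas were dissociated with papain, macrophages were removed on antibody-coated dishes, and RGCs were held on dishes coated with antibody against CD90 (Thy1). No treatment or altered allele was named for either age, and the labels do not say whether each sample came from separate animals or litters, so the p-values measure only the spread between these samples. The question addressed by the comparison was which regulators accompany the loss of rapid axon growth between these ages, and the levels of the Elk-1 relatives bear on it because several of them can occupy the same sites.

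ETS factors share a winged helix-turn-helix domain that contacts a GGAA core, and differ in their other domains, partners and response to kinases. The ternary complex factors Elk1, Elk3 and Elk4 bind beside serum response factor (SRF) at immediate-early genes and are phosphorylated by MAP kinases. Ets1 and Ets2 carry a pointed domain and are also ERK substrates. Etv1, Etv4 and Etv5 form the PEA3 group, which is induced by FGF and ERK signalling. Gabpa is the DNA-binding subunit of GA-binding protein, which acts with its beta subunit on many housekeeping and mitochondrial genes, and Elf2 belongs to the Elf group.

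Since these factors share a consensus, the promoters of the members with higher levels at E18 than at P5 were read for it, together with that of Gabpa, the other member with a match. Among the RefSeq windows of GRCm38.p6 (the mm10 assembly), which run from 250 bases before to 50 bases after each transcript start, 8 members matched with 13 windows. Ets1 and Etv4 had no entry. CCGGAAG, sought on both strands, was present in the windows of 2 of these 8 members, Elk4 and Gabpa, against 9.93% of the 27025 genes with a window. The longer form CCGGAAGT, which contains it, was present only in Elk4 among the members, against 4.31% of all genes. The site of Elk4 began at base -68 from the transcript start, and that of Gabpa lay on the other strand with its leftmost base at -93. The bare core GGAA is common, since 96.0% of the 32851 windows held it on either strand, with a median of 3 cores in the 250 bases before the start. The 250 bases before the start are given for the most upstream window of each gene. Capitals mark each GGAA core (TTCC on the other strand), extended to the whole consensus where it was found.
Elk4, chr1:132007370-132007619, plus strand: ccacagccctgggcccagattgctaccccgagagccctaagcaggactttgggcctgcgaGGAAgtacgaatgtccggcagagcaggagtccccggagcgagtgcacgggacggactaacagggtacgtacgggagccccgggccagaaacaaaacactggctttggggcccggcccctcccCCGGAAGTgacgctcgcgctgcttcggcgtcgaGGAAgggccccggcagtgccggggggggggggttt
Gabpa, chr16:84834874-84835123, plus strand: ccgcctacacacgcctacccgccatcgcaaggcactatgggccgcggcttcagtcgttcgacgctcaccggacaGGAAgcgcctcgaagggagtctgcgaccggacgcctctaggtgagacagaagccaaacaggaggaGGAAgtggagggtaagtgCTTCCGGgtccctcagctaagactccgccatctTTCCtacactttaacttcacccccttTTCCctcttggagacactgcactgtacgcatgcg
Elk1, chrX:20950609-20950858, minus strand: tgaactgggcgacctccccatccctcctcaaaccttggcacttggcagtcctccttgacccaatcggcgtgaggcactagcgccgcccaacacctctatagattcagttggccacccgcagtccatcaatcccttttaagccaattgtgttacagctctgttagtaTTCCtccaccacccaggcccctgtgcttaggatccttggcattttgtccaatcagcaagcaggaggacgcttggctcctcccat
Elf2, chr3:51340645-51340894, minus strand: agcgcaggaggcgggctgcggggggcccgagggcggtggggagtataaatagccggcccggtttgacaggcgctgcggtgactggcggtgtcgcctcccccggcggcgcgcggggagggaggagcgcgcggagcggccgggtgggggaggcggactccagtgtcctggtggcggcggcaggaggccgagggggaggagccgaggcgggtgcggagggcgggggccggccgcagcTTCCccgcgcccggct
Elk4 held 3 cores, one of them within CCGGAAGT, and Gabpa held 5, one of them within CCGGAAG read on the other strand. Elk1 and Elf2 held 1 core each. These counts depend on the window printed, since another window of Elf2 held 6 cores and other windows of Elk4 held 2 and 4. A match of these letters is a description of the sequence and not of binding.

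The counts on genes totalled 81213639 in the shallowest sample and 114512853 in the deepest. Of 12 RGC markers, all were tested, and 3 were higher and 4 lower at E18. Their summed level was 7010 to 8326 CPM (counts scaled to a common library size after TMM normalization) at E18 and 7767 to 8893 CPM at P5. That sum joins genes that went opposite ways, named after their values were seen. Thy1, the antigen by which RGCs were held on dishes, had means of 247 CPM at E18 and 553 CPM at P5 (log2 fold change -1.16). Slc17a6 (-1.40), Nefl (-0.68) and Pou4f3 (-0.54) were lower at E18 too, whereas Isl1 (1.10), Gap43 (0.51) and Sncg (0.40) were higher. The preparations were not alike in other cell types. The 10 genes of dividing cells summed to 330 CPM in E18 replicate 1, 133 in E18 replicate 3 and 81.7 in E18 replicate 4, against 63.5 to 80.5 CPM at P5. Likewise, 10 retinal progenitor genes summed to 646 to 929 CPM at E18 and 513 to 648 CPM at P5, with 6 of 10 higher in each of both lists. Genes counted as higher or lower here passed the edgeR threshold given below. For each marker list the background is 20.8% of all genes higher and 22.5% lower at E18. Pax6, which did not pass, made up most of the progenitor sum, with 622 to 751 CPM at E18 and 498 to 629 CPM at P5. All 10 progenitor genes had positive log2 fold changes, with a median of 3.09. Ccnd1, for example, had 146, 34.5 and 14.2 CPM in E18 replicates 1, 3 and 4 against 5.54 to 10.9 CPM at P5. Amacrine cell genes summed to 96.8 CPM in E18 replicate 1, 199 in E18 replicate 3 and 14.7 in E18 replicate 4, against 19.2 to 28.8 CPM at P5, and 4 of 7 tested were higher at E18. Photoreceptor genes summed to 25.4, 9.95 and 3.77 CPM in the same E18 samples and to 3.34 to 4.29 CPM at P5, with 4 of 7 tested higher and 1 lower. Mueller glia and astrocyte genes summed to 401 to 447 CPM at E18 and 269 to 324 CPM at P5, with 3 of 7 tested higher. Oligodendrocyte lineage genes summed to 73.8 to 76.7 CPM at E18 and 38.0 to 61.3 CPM at P5, with 1 of 5 tested higher and 1 lower. Bipolar cell genes summed to 3.18 to 3.73 CPM at E18 and 5.16 to 7.84 CPM at P5, with 2 of 4 tested lower. Microglial genes summed to at most 3.23 CPM in any sample. In RNA from a whole preparation, fewer cells of a type and less RNA per cell cannot be told apart.

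Elf2, Elk1 and Elk4 were higher at E18, and Etv1 was lower. These 4 of 10 members passed an adjusted p threshold of 0.05 in the quasi-likelihood test of edgeR, fitted to all 16449 genes with enough counts, against 43.4% of all genes, so the share of members called was close to the background. Members called higher were 3 of 10, against 20.8% of all genes, and members called lower were 1 of 10, against 22.5%. The values of the ages did not overlap for 6 of 10 members, against 56.1% of all genes. For 4 of 10 members every E18 value lay above the P5 values, against 27.6% of all genes, and for 2 of 10 every E18 value lay below them, against 28.5%. The median log2 fold change of E18 over P5 was 0.47 over the members and 0.00 over all genes tested. Without E18 replicate 3, the number of genes called in the whole table fell from 7135 to 4575, while 3 members were called.

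**Figure D1:**
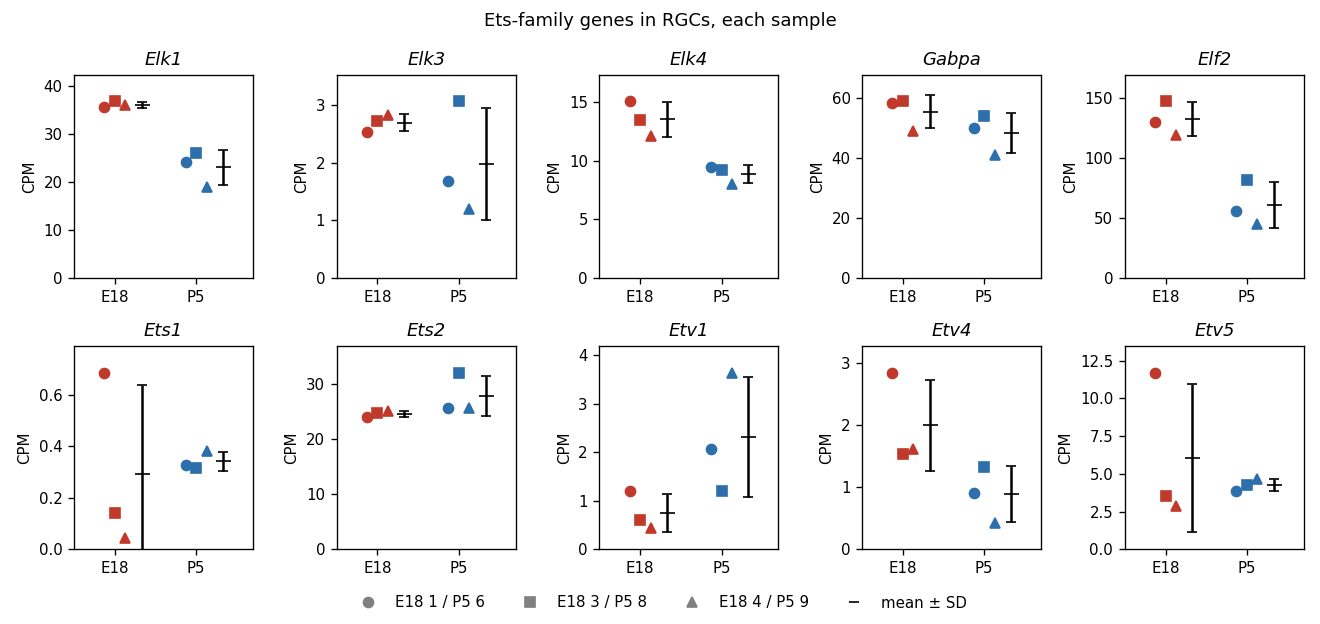
Level of each Ets-family gene in CPM (y axis, starting at 0, with its own scale in each panel) in the E18 samples (red) and P5 samples (blue), with the mean and SD of 3 samples beside them. Elf2, Elk1, Elk4 and Etv4 lie above the P5 samples in every E18 sample, and E18 replicate 1 stands apart for Etv5 and Ets1.

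Elf2 was the most abundant member at E18 and had the largest change relative to its standard error among the members. Its gene lies on chromosome 3 (51252720 to 51340663 of mm10, minus strand). It had 130.1, 147 and 119 CPM in E18 replicates 1, 3 and 4, and 55.9, 81.9 and 44.8 CPM in P5 replicates 6, 8 and 9. Every E18 sample was above every P5 sample, and P5 replicate 8 was nearest to the E18 values. The means were 132 ± 13.98 CPM at E18 and 60.9 ± 19.0 CPM at P5 (SD, n = 3 each), a 2.17-fold difference (log2 fold change 1.12, standard error 0.201, adjusted p = 0.00299 in the edgeR fit). Among all genes tested, 94.0% had a lower log2 fold change. It passed in each of the 6 fits that left out 1 sample, with log2 fold changes of 0.94 to 1.38. E18 replicate 3, which had the highest summed level of amacrine cell genes, was the highest sample for Elf2, Elk1 and Gabpa, and the calls of Elf2 and Elk1 held without it.

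Elk1, the ternary complex factor whose consensus defined the set, was also higher at E18. Its gene is on the X chromosome (20933395 to 20950608, minus strand). It had 35.6, 36.9 and 36.1 CPM in E18 replicates 1, 3 and 4 and 24.3, 26.1 and 19.0 CPM in P5 replicates 6, 8 and 9. The E18 samples were nearly equal, the P5 samples were spread, and the ages did not overlap. The means were 36.2 ± 0.632 CPM and 23.1 ± 3.69 CPM (SD, n = 3 each), a 1.57-fold difference (log2 fold change 0.65, standard error 0.129, adjusted p = 0.00466 in the edgeR fit). All 6 fits with a sample left out called it, at log2 fold changes of 0.52 to 0.73.

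Elk4, also known as SAP-1, moved by a like amount from a lower level. Its gene is on chromosome 1 (132007607 to 132032612, plus strand) and carries the consensus shown above. It had 15.0, 13.4 and 12.1 CPM in E18 replicates 1, 3 and 4 and 9.49, 9.15 and 8.03 CPM in P5 replicates 6, 8 and 9, without overlap. The log2 fold change was 0.60, a 1.52-fold difference (standard error 0.136, adjusted p = 0.00815 in the edgeR fit). The means were 13.5 ± 1.48 and 8.89 ± 0.765 CPM (SD, n = 3 each). The call held in all 6 fits with a sample left out, at log2 fold changes of 0.53 to 0.68. It was weakest without E18 replicate 1 (adjusted p = 0.0442 in the edgeR fit). That sample was the highest for Elk4 and had the highest summed level of dividing-cell and progenitor genes. The part of these cells in the value of Elk4 was not tested. Elk3, also called Net, which can repress the sites that its relatives activate, is on chromosome 10 (93247414 to 93311135, minus strand). It had 2.53, 2.73 and 2.83 CPM in E18 replicates 1, 3 and 4, and 1.68, 3.07 and 1.20 CPM in P5 replicates 6, 8 and 9. The P5 samples lay on both sides of the E18 samples. The difference did not exceed the spread of the replicates (log2 fold change 0.44, with a 95% interval of -0.30 to 1.18, adjusted p = 0.299 in the edgeR fit). Without P5 replicate 8, the log2 fold change was 0.89 and passed (adjusted p = 0.0145 in the edgeR fit), against adjusted p of 0.0145 to 0.655 over the alternatives.

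Gabpa, whose gene is on chromosome 16 (84834925 to 84863779, plus strand), was abundant at both ages. It had 58.2, 59.0 and 49.1 CPM in E18 replicates 1, 3 and 4 and 50.1, 54.0 and 41.1 CPM in P5 replicates 6, 8 and 9. The ranges overlapped, and the 95% interval of the log2 fold change was -0.09 to 0.48 (estimate 0.20, adjusted p = 0.236 in the edgeR fit). The interval of Gabpa ended below that of Elf2, which ran from 0.66 to 1.58, although the difference between these genes was not tested. Ets2, on chromosome 16 as well (95702075 to 95721051, plus strand), had 23.9, 24.7 and 24.99 CPM in E18 replicates 1, 3 and 4. It had 25.7, 32.0 and 25.7 CPM in P5 replicates 6, 8 and 9. All E18 values were below all P5 values, by a small margin, and the log2 fold change of -0.18 did not pass (95% interval -0.44 to 0.09, adjusted p = 0.244 in the edgeR fit).

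Etv1, known as Er81 and needed for sensory-motor connections in the spinal cord, was the member that was lower at E18. Its gene is on chromosome 12 (38779380 to 38870484, plus strand). It was scarce, with 99, 67 and 40 counts in E18 replicates 1, 3 and 4 and 184, 119 and 343 in P5 replicates 6, 8 and 9. In CPM these are 1.19, 0.598 and 0.442 at E18 and 2.08, 1.21 and 3.65 at P5, so that the highest E18 sample and the lowest P5 sample were almost equal. Its level was 3.11-fold higher at P5 (means 2.31 ± 1.24 CPM at P5 and 0.744 ± 0.397 CPM at E18, SD, n = 3 each; log2 fold change -1.64, standard error 0.478, adjusted p = 0.0236 in the edgeR fit). Only 4.54% of genes had a lower log2 fold change. The call was lost without E18 replicate 3, E18 replicate 4, P5 replicate 6 or P5 replicate 9, where the log2 fold changes were -1.50, -1.37, -1.72 and -1.15.

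The other members of the PEA3 group did not pass the threshold. Etv4 (chromosome 11, 101769742 to 101785371, minus strand) had 2.84, 1.53 and 1.61 CPM in E18 replicates 1, 3 and 4 and 0.914, 1.33 and 0.425 CPM in P5 replicates 6, 8 and 9. The ages did not overlap, and the log2 fold change was 1.16 with a standard error of 0.422, which narrowly missed the threshold (adjusted p = 0.0523 in the edgeR fit). It passed in DESeq2, in edgeR without the filter on low counts and without P5 replicate 8, with adjusted p of 0.0127 to 0.170 over the alternatives. Etv5 (chromosome 16, 22381309 to 22439719, minus strand) had 11.7 CPM in E18 replicate 1 and 3.54 and 2.89 in E18 replicates 3 and 4. Its P5 values were 3.86, 4.26 and 4.63 CPM in replicates 6, 8 and 9. A single E18 sample was therefore high and the other E18 samples were below the P5 samples. The log2 fold change was 0.51 with all samples (95% interval -0.56 to 1.57, adjusted p = 0.409 in the edgeR fit) and -0.40 without E18 replicate 1 (adjusted p = 0.199 in the edgeR fit). E18 replicate 1 is also the sample with the highest summed level of the dividing-cell and progenitor genes given above, and the part of these cells in the value of Etv5 was not tested.

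Ets1 (chromosome 9, 32636221 to 32757820, plus strand), which is well known in lymphoid and endothelial cells, was close to undetected. It had 57, 16 and 4 counts in E18 replicates 1, 3 and 4 and 29, 31 and 36 counts in P5 replicates 6, 8 and 9, or 0.0442 to 0.687 CPM at E18 and 0.315 to 0.383 CPM at P5. The E18 samples lay on both sides of the P5 samples, and the interval of the log2 fold change was wide (-1.96 to 1.45, estimate -0.26, adjusted p = 0.803 in the edgeR fit). Without E18 replicate 1 the log2 fold change was -1.81 and passed (adjusted p = 0.0367 in the edgeR fit). It turned to 0.09 without E18 replicate 3 and to 0.25 without E18 replicate 4, with adjusted p of 0.0367 to 0.943 over the alternatives. The 10 markers of endothelial cells and pericytes summed to 17.3 to 73.4 CPM at E18 and 15.9 to 19.1 CPM at P5. Of 8 tested, 1 was higher and 3 were lower, against 20.8% and 22.5% of all genes. Kdr, the gene that was higher, made up most of the sum at E18, with 69.5, 62.9 and 14.1 CPM in E18 replicates 1, 3 and 4. The 3 that were lower, named after their values were seen, were Pecam1, Tek and Rgs5. Their means were 0.686, 0.830 and 0.112 CPM at E18 and 2.41, 2.88 and 2.33 CPM at P5. Cdh5 had at most 0.0609 CPM in any sample, and was at 0 in E18 replicates 3 and 4 and in P5 replicate 6.

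**Figure D2:**
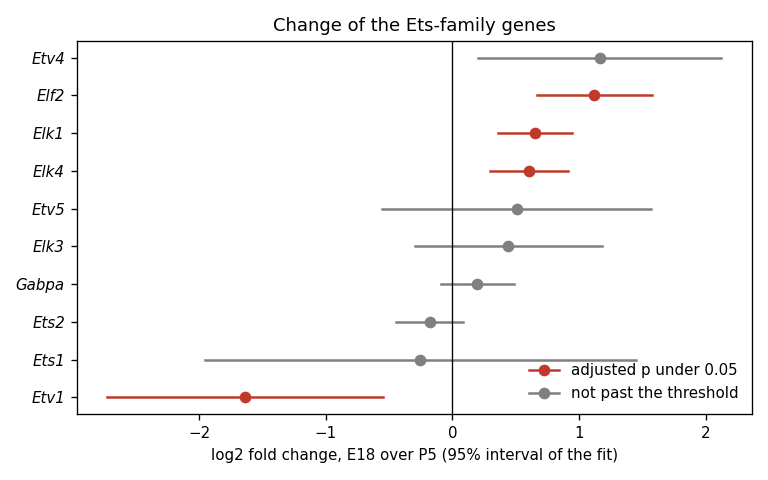
Log2 fold change of E18 over P5 for each Ets-family gene (x axis), with the 95% interval of the edgeR fit as a line. The 4 members in red passed the threshold, 3 to the right of 0 and Etv1 to the left, and the interval of Ets1 is the widest, from -1.96 to 1.45.

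The samples of one age did not rank alike across the members. P5 replicate 9 had the lowest P5 value for 7 of 10 members and the highest for Ets1, Etv1 and Etv5, while P5 replicate 8 had the highest value for 6 members. At E18, replicate 1 had the highest value for 5 members (Elk4, Ets1, Etv1, Etv4 and Etv5) and replicate 4 the lowest for 6. Elf2, Elk1 and Elk4 kept their direction and their call in all of these fits, and Ets1 and Etv5 did not keep their direction.

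**Figure D3:**
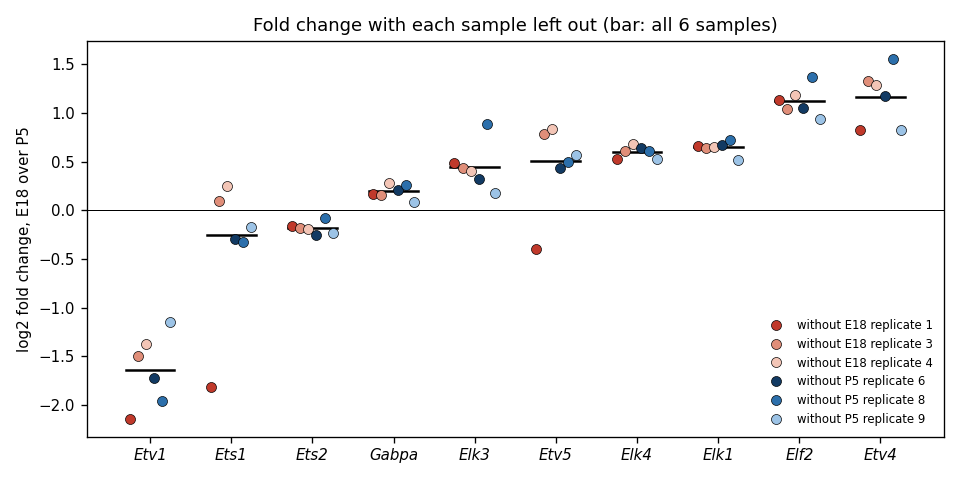
Log2 fold change of E18 over P5 for each Ets-family gene with each of the 6 samples left out in turn (points), beside the value from all samples (bar). Elk1, Elk4 and Elf2 stay between 0.52 and 1.38, whereas Etv5 falls to -0.40 and Ets1 to -1.81 without E18 replicate 1.

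To compare members with each other, CPM were divided by the length of the exons of each gene in kilobases. At E18 the order by mean CPM per kilobase was Elf2 (13.8 ± 1.46, SD, n = 3), Gabpa (9.75 ± 0.963), Elk1 (6.73 ± 0.117), Ets2 (4.25 ± 0.0943), Elk4 (2.11 ± 0.231), Etv5 (1.47 ± 1.20), Etv4 (0.643 ± 0.237), Elk3 (0.593 ± 0.0331), Etv1 (0.0560 ± 0.0298) and Ets1 (0.0344 ± 0.0409). Elf2, Gabpa, Elk1 and Ets2 were each separated from the next gene by their ranges over samples, although Gabpa and Elk1 overlapped when the longest transcript was taken as the length. The ranges of Elk4 and Etv5, of Etv5 and Etv4, of Etv4 and Elk3, and of Etv1 and Ets1 overlapped.

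At P5 the order by CPM per kilobase began with Gabpa (8.51 ± 1.16, SD, n = 3) and Elf2 (6.36 ± 1.99), whose ranges overlapped. Ets2 (4.81 ± 0.636) and Elk1 (4.29 ± 0.685) followed, also with overlapping ranges, so that Elk1 no longer stood above Ets2. Elk4 (1.39 ± 0.119) and Etv5 (1.04 ± 0.0947) came next, each apart from its neighbours. Elk3, Etv4 and Etv1 overlapped from one to the next, at means of 0.436, 0.287 and 0.174, and Ets1 was lowest at 0.0403. With the longest transcript as the length, Elf2 stood before Gabpa at P5, and no other position changed by more than the spread between samples.

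The 10 members together reached 35.9 to 41.5 CPM per kilobase at E18 and 23.0 to 32.1 CPM per kilobase at P5. Elf2 made up 35.04% of that sum at E18 (32.8% to 37.5% over the samples) and 22.9% at P5 (20.4% to 26.6%). Gabpa made up 24.7% at E18 and 31.3% at P5. Elk1 held a similar share at both ages, 17.1% at E18 (16.0% to 18.7%) and 15.7% at P5 (15.1% to 16.8%). By mean CPM per kilobase, Elk1 was at position 3 at E18 and at position 4 at P5.

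**Figure D4:**
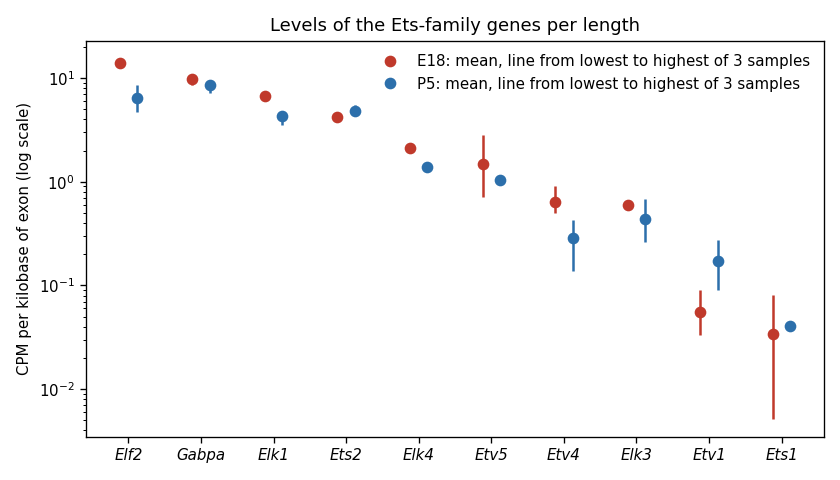
Level of each Ets-family gene in CPM per kilobase of exon (y axis, log scale) at E18 (red) and P5 (blue), as the mean with a line from the lowest to the highest of 3 samples. Elf2, Gabpa, Elk1 and Ets2 are the 4 highest at both ages, and Etv1 and Ets1 are the lowest.

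Some member genes share exon bases with a neighbour in the GENCODE annotation, and no source used here says whether strand was used in the counting. Gabpa shares 397 bases with Atp5j on the opposite strand. Atp5j, a subunit of ATP synthase, had a log2 fold change of -0.25 that did not pass (adjusted p = 0.0619 in the edgeR fit). Elf2 shares 371 bases with 4930577N17Rik, which had means of 0.752 and 0.949 CPM, small beside the level of Elf2. Elk3 shares 316 bases with Cdk17, which is far more abundant, with means of 201 CPM at E18 and 185 CPM at P5. Elk1 shares 76 bases with Uxt on the same strand, at means of 4.31 and 3.85 CPM. Elk4 shares 104 bases with Gm29103 on the same strand and 84 with Mfsd4a on the opposite strand, and neither symbol is in the count table. The effect of shared bases on the counts of the members was not tested.

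The most similar patterns over the 6 samples were sought among the 9720 genes whose mean reached 10 CPM, as the Euclidean distance of log2 CPM centred on the mean of each gene. For Elf2, the nearest genes were Dyrk3, a kinase, at a distance of 0.14, Epb4.1, a protein of the membrane skeleton, at 0.14, and Sap30, a histone deacetylase complex subunit, at 0.15. Dyrk3 had 21.5, 21.8 and 18.9 CPM in E18 replicates 1, 3 and 4 and 9.18, 13.1 and 6.82 CPM in P5 replicates 6, 8 and 9, with P5 replicate 8 highest at that age as in Elf2. For Etv1, the nearest genes were farther away, Sash1 at 0.82, Mgarp at 0.83 and Opn4 at 0.85. Etv1 itself, with means of 0.744 CPM at E18 and 2.31 CPM at P5, lies below the 10 CPM limit. Genes as scarce as Etv1 were not compared, and the part of counting noise in its distances was not tested. Opn4, the photopigment melanopsin of intrinsically photosensitive RGCs, had 8.87, 4.77 and 5.84 CPM in E18 replicates 1, 3 and 4. Its P5 values were 22.5, 16.2 and 29.2 CPM in replicates 6, 8 and 9, where replicate 9 was highest and replicate 8 lowest, as for Etv1. Since the nearest genes were chosen over these same 6 samples, a shared order of replicates is part of that choice and no further likeness.

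Of 17 other ETS-family genes, 16 were in the table and 7 had enough counts to be tested. As over the members, the background for each list is 20.8% of all genes higher and 22.5% lower at E18. Elf1 (log2 fold change 0.85), Elf3 (0.76), Etv6 (0.75) and Etv3 (0.74) were higher at E18, none was lower, and the median over the 7 was 0.74 (edgeR threshold as above). Etv3 had 34.6, 36.4 and 32.7 CPM in E18 replicates 1, 3 and 4 and 20.5, 23.9 and 17.8 CPM in P5 replicates 6, 8 and 9 (adjusted p = 0.00247 in the edgeR fit). Etv6, a repressor of the family, had 14.6, 16.0 and 13.6 CPM at E18 and 8.70, 9.72 and 7.98 CPM at P5 in the same order of replicates (adjusted p = 0.00275 in the edgeR fit). The genes not tested include Erg and Fli1, factors of endothelial and blood cells, and Spi1, the PU.1 factor of macrophages. Their means were at most 0.0394 CPM at either age, and these 3 genes were named after their values were seen.

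Of 19 partners and regulators of the family, 5 were higher at E18, 3 were lower and 11 did not pass, a share called that was close to the 43.4% of all genes. Their median log2 fold change was 0.30. Srf, the partner of the ternary complex factors, had 52.5, 44.7 and 42.3 CPM in E18 replicates 1, 3 and 4 and 24.8, 23.2 and 20.4 CPM in P5 replicates 6, 8 and 9. Its log2 fold change was 1.03 (adjusted p = 0.000567 in the edgeR fit), above those of Elk1 and Elk4. Mkl2, a coactivator that binds SRF in place of ternary complex factors, went the other way, with means of 17.3 CPM at E18 and 29.7 CPM at P5 (log2 fold change -0.78, adjusted p = 0.00154 in the edgeR fit).

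Cic, the Capicua repressor whose known targets include Etv1, Etv4 and Etv5, had means of 76.7 ± 3.02 CPM at E18 and 49.2 ± 4.80 CPM at P5 (SD, n = 3 each; log2 fold change 0.64, adjusted p = 0.00164 in the edgeR fit). Its cofactor Atxn1, named after its value was seen, was lower at E18 (log2 fold change -0.60). Ep300, a coactivator acetyltransferase, was higher (0.74), as was Hcfc1 (0.52), also named after its value was seen. Id3, a helix-loop-helix inhibitor, had the largest difference of the list, with 4.20, 1.21 and 1.24 CPM in E18 replicates 1, 3 and 4 against 0.181 to 0.305 CPM at P5 (log2 fold change 3.21, adjusted p = 0.00242 in the edgeR fit). Gabpb1, the activating subunit that pairs with Gabpa, had 44.2, 49.7 and 43.8 CPM in E18 replicates 1, 3 and 4 and 29.3, 44.8 and 21.9 CPM in P5 replicates 6, 8 and 9. The ages overlapped and the log2 fold change of 0.52 did not pass (adjusted p = 0.0907 in the edgeR fit). The remaining gene that was lower, Ppp3cb, encodes a calcineurin subunit (log2 fold change -0.31, named after its value was seen).

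Of 25 genes of the ERK, JNK and p38 cascades, 5 were higher at E18, 5 were lower and 15 did not pass, so that the share called was again close to the 43.4% of all genes. The median log2 fold change of these upstream kinases was 0.08. Mapk3, which encodes ERK1, had 61.3, 81.1 and 85.3 CPM in E18 replicates 1, 3 and 4 and 64.1, 51.6 and 64.3 CPM in P5 replicates 6, 8 and 9, with overlap (log2 fold change 0.34, adjusted p = 0.0872 in the edgeR fit). Map2k1, the ERK kinase MEK1, was lower at E18 (-0.65), and so was Mapk9, which encodes JNK2 (-0.83). Map2k6 and Mapk11 of the p38 arm were higher (log2 fold changes 1.20 and 0.67). Further genes that passed, named after their values were seen, included Nras (0.55), Map2k7 (0.46) and Mapk8 (0.33), which were higher, and Map2k4 (-0.64) and Mapk10 (-0.50), which were lower.

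Feedback genes induced by ERK, which are transcribed together with Etv4 and Etv5 in many tissues, were in the table for all 11 listed and tested for 10. Of these, 6 were higher at E18 and none was lower, against 20.8% and 22.5% of all genes, with a median log2 fold change of 1.21. Dusp6, the ERK phosphatase, had 68.6, 66.9 and 56.3 CPM in E18 replicates 1, 3 and 4 and 21.2, 20.5 and 8.64 CPM in P5 replicates 6, 8 and 9 (log2 fold change 1.93, adjusted p = 0.00154 in the edgeR fit). These E18 values were alike in all replicates, unlike those of Etv5. Spry1 (1.87), Dusp4 (1.58) and Dusp5 (1.51) were higher too, whereas Spry4 had a log2 fold change of -0.43 that did not pass (adjusted p = 0.0765 in the edgeR fit).

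Of 12 immediate-early genes of the kind bound by ternary complex factors and SRF, 7 were higher at E18 and Fosb, named after its value was seen, was lower, with a median log2 fold change of 0.68. The largest changes were those of Egr2 (2.41), Cyr61 (2.19), Egr3 (2.16) and Ier2 (1.32). Fos (0.16), Nr4a1 (-0.18), Arc (-0.06) and Egr4 (-0.06), named after their values were seen, did not pass. Fos had means of 135 CPM at E18 and 120 CPM at P5, with overlap. Egr2 was scarce, at 2.19, 0.847 and 0.607 CPM in E18 replicates 1, 3 and 4 against 0.170 to 0.274 CPM at P5. Egr3 had 1.90, 1.41 and 1.13 CPM in E18 replicates 1, 3 and 4 and 0.266 to 0.417 CPM at P5. Cyr61 was high in E18 replicate 1 (19.5 CPM) and lower in E18 replicates 3 and 4 (3.74 and 2.43 CPM), of which the last lay within the P5 values of 1.27 to 2.76 CPM.

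Of 15 known GABP targets, 4 were higher and 4 lower at E18 and 7 did not pass, against 43.4% of all genes called. Their median log2 fold change was -0.08. Those that were higher were Yap1 (log2 fold change 2.36), Utrn (0.77), Nrf1 (0.62) and Rb1 (0.51). Yap1, a transcriptional coactivator of growing cells, had 6.73, 2.22 and 0.950 CPM in E18 replicates 1, 3 and 4 against 0.532 to 0.802 CPM at P5, so that E18 replicate 1 was highest here as well. Those that were lower, named after their values were seen, encode subunits of the mitochondrial respiratory chain and ATP synthase, namely Cox6c (-0.36), Sdhd (-0.36), Cox5b (-0.35) and Atp5b (-0.34). Cox4i1 (-0.15), Cox7c (-0.16), Tfam (0.14), Tfb1m (0.17), Tfb2m (-0.22) and Polrmt (-0.08), also named after their values were seen, did not pass. The number called fell from 8 to 5 without E18 replicate 1, E18 replicate 3, P5 replicate 6 or P5 replicate 9.

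**Figure D5:**
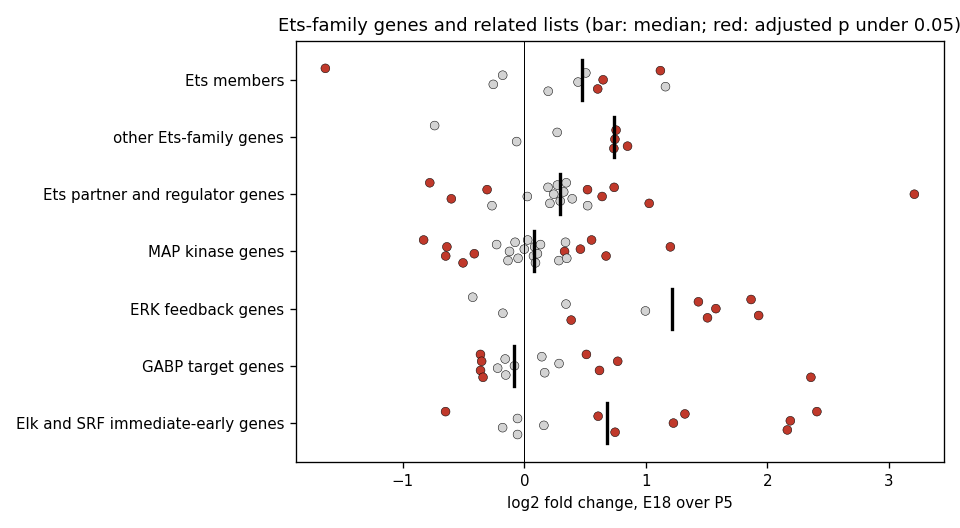
Log2 fold change of E18 over P5 (x axis) for each gene tested in the 10 Ets-family members and in the related lists, with the median of each list as a bar and genes past the edgeR threshold in red. The medians run from -0.08 for GABP targets to 1.21 for ERK feedback genes, and the members lie at 0.47.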

How the data were processed

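RGCs from 3 E18 and 3 P5 samples were grouped by the age and replicate number in their labels. The methods name ribosomal RNA depletion, whereas the labels name polyA RNA. The authors sequenced paired-end reads, aligned them to mm10 with STAR, and used HT-seq to count RefSeq genes. The deposited raw counts were used. One E18 column name also carries the numbers 2 and 5 and was taken as replicate 1. Whether that sample pools several preparations is not stated in the labels. The authors' normalized counts, a signal scaled for library size, and the log2 ratios, p-values and ranks that the authors deposited were not used.

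Counts were tested with edgeR 4.0.16 in R 4.3.3 (TMM, expression filter with a minimum count of 10, quasi-likelihood test, Benjamini-Hochberg adjustment, threshold 0.05), on 16449 genes. The test was checked on simulated counts. Standard errors and 95% intervals belong to the fit, and samples of one age differed by more than sampling noise (chi-square per degree of freedom of 30.5 to 141). Alternatives were DESeq2 1.42.0, other scalings, no filter and each sample left out. Lengths and coordinates are those of GENCODE M21 (mm10), and promoters those of RefSeq GRCm38.p6. Genes named are the 10 members, up to 4 called genes per list with the largest change, some partners, and the 3 nearest patterns, except that a gene of this rule is not reported here. Members and lists were chosen with earlier results of these data known. Protein sequences were not used here.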

Additional observations from a re-analysis of the deposited data

How the results depend on the processing

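Elf2, Elk1 and Elk4 kept their direction and their call in all 10 alternatives run. Etv4, which missed the threshold, passed in DESeq2 (log2 fold change 1.17) and without the filter on low counts (1.17). With the longest transcript as length, Elf2 was at position 1 and Gabpa at position 2 of the levels at P5. Leaving out the samples one at a time, the log2 fold changes ranged from -1.81 to 0.25 for Ets1, from -0.40 to 0.84 for Etv5, from -2.14 to -1.15 for Etv1, from 0.82 to 1.56 for Etv4 and from 0.18 to 0.89 for Elk3. The members called numbered 3 to 6, the GABP targets called 5 to 10, and all genes called 4575 to 8796. No scaling changed the direction of a member. The cause of these shifts was not tested. Counting precision is poorest for Ets1, Etv4, Elk3 and Etv1, which had at most 57, 236, 306 and 343 counts in a sample. No paired analysis was possible because the ages share no replicate number.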
